A study of Mus musculus with 18 samples.

Results

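Glutamatergic nuclei of the embryonic mouse forebrain were compared between animals homozygous for a frameshift in Myt1l and wild-type animals. A nucleus was counted as glutamatergic when its raw counts of Neurod2 and Neurod6, a pair of transcription factor genes of cortical excitatory neurons, summed to at least 2 and when it held no count of Gad1, Gad2 or Dlx6os1, which mark GABAergic neurons. The choice was made among nuclei with 800 to 6000 unique molecular identifiers (UMIs), 300 to 3000 genes and at most 1% of UMIs from mitochondrial genes. It gave 21249 nuclei out of 137693 that passed these limits in the 6 animals compared, and out of 261143 barcodes in the whole series of 9 animals. The wild-type (WT) animals gave 2935, 4409 and 3687 such nuclei and the knockout (KO) animals 2190, 3499 and 4529.

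All embryos were taken at embryonic day 14 (E14) from the C57BL/6 line Myt1l S710fsX, which carries a frameshift in Myt1l in every cell of the body from the start of development. WT, heterozygous (Het) and homozygous mutant (KO) embryos came from crosses of heterozygous parents, with 3 animals per genotype, and each animal was sequenced in 2 runs that were summed here. Nuclei were isolated from frozen forebrain with the meninges removed, and the RNA was barcoded in wells with the Scale Biosciences single cell kit. Homozygous animals of this line do not survive after birth. The labels of run 1 carry a genotype entry of WT for all 9 animals while the sample titles name WT, Het and KO, and the titles were followed. Xist RNA, made from the inactive X chromosome of females, stood at 279.5 counts per 1000000 (CPM) in the glutamatergic nuclei of WT 3 and at no more than 0.628 CPM in the other 5 animals, so that the replicate 3 pair differed in sex as well as in genotype although the series describes mixed sexes in each genotype.

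MYT1L is a zinc finger transcription factor that appears in neurons as they leave the cell cycle and stays on for life. It binds the short core AAGTT and is known both to repress genes of non-neuronal and progenitor programmes through SIN3 and histone deacetylase corepressors and to favour neuronal maturation. The excitatory neurons of the cortex are born from radial glia and intermediate progenitors at the ventricle, migrate outward and then grow axons and build glutamate synapses, and at E14 deep-layer neurons have settled while upper-layer neurons are being made.

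The markers that chose the nuclei are given as values alone. Neurod2 lay between 619 and 687 CPM in the WT and between 597 and 697 CPM in the KO animals, and Neurod6 between 270.5 and 307 CPM in the WT and between 239 and 281 CPM in the KO animals. Of the 21249 nuclei, 10022 (47.2%) sat at a marker sum of exactly 2, just inside the limit, while 16799 nuclei with a sum from 1 to under 2 and no GABAergic count lay just outside it. A further 2828 nuclei had the markers but were left out for a GABAergic count. Markers that the rule did not use showed the same class. Tbr1, a factor of deep-layer neurons, ranged over the 6 animals from 87.2 to 155 CPM against 8.23 to 14.9 CPM in the GABAergic nuclei, and Slc17a6, the vesicular glutamate transporter of young neurons, from 210.1 to 253 CPM against 9.04 to 24.9 CPM. Fezf2, Sox5, Nfia and Nfib were likewise higher than in GABAergic nuclei in every animal, while Bcl11b and Mef2c, which striatal and other GABAergic neurons also make, lay at a like level in both. None of these markers was called between KO and WT.

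Glutamatergic nuclei had a median of 3280 to 4476 UMIs per library in run 1 and of 2400.5 to 3179 in run 2, and the sum over all glutamatergic nuclei of an animal ran from 7374981 UMIs in KO 1 to 15211052 in WT 2. The mitochondrial share was 0.395%, 0.347% and 0.217% in WT 1 to 3 and 0.314%, 0.197% and 0.222% in KO 1 to 3. Within replicate pairs it was thus lower in KO for replicates 1 and 2 and nearly equal for replicate 3. Median UMIs in runs 1 and 2 were 3280 and 2400.5 in WT 1 against 3971 and 2880 in KO 1. They were 4341 and 3179 in WT 2 against 4476 and 3045 in KO 2, and 4103 and 3026 in WT 3 against 3836 and 2873 in KO 3. The part of these differences in the calls was not tested. Nuclei with a count of Eomes or Neurog2, which mark intermediate progenitors and newborn neurons, made up 17.6% to 20.7% of the glutamatergic nuclei of WT and 16.8% to 19.8% of those of KO animals. Only 1 barcode was shared between the runs of an animal and 9 between different animals. Counts were summed over nuclei, so that a shift in the mix of glutamatergic subtypes and a change inside the nuclei were not told apart.

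Of 16914 genes tested, 354 (2.09%) were called between KO and WT glutamatergic nuclei, 199 (1.18%) of them higher and 155 (0.916%) lower in KO. A call means a Benjamini-Hochberg adjusted p under 0.05 over all genes tested, from the quasi-likelihood test of edgeR with the replicate number as a block, and a log2 change beyond 0.2. At a mean level of at least 20 CPM there were 6540 genes, with 259 calls (3.96%), of which 151 (2.31%) were higher and 108 (1.65%) lower. For 291 of the 354 genes the WT and KO animals did not overlap. The same values made the calls, so this count is a description of the called genes and adds no support. The share over all genes tested is not given here. The median change of the genes called higher was 0.37 on the log2 scale and that of the genes called lower -0.40, so most changes were well under a doubling. Without the block, 29 genes were called, 20 higher and 9 lower, all of them among the 354, and DESeq2 with the block called 125, also all among them. Leaving out the replicate 3 pair raised the count to 1003, and 326 of the 354 calls were among these.

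By function, some lists with more than 1 call had calls in a single direction. These were downward for neuregulins and their receptors, the vesicle release machinery and neuronal microtubule and axon proteins. The same held for synaptic organisers, receptor tyrosine phosphatases, immediate early and heat shock genes and markers of cycling cells. Calls were upward alone for MYT1 family and corepressors, neural RNA-binding proteins and Zfp zinc finger genes. Slit, Robo and Flrt genes and markers of migrating and upper-layer neurons also had upward calls alone. The direction of the calls is not that of a whole list: the summed levels of the neuregulin, vesicle release and microtubule lists did not fall in every replicate pair. Without the replicate 3 pair, calls of both signs appeared in the neuregulin, vesicle release, microtubule, synaptic organiser, RNA-binding, Slit and Zfp lists. The 59 lists of gene families examined held 1816 of the genes tested and 99 of the 354 calls, and 255 called genes belonged to no list. Lists of glutamate receptors, cell adhesion molecules, ion channels and proteoglycan enzymes held calls of both signs. Called members below 20 CPM or beyond the 3 largest of a list, and uncalled relatives, were named after their values were seen, to account for the counts. The list counts rest on few genes each and are set below against the shares of 1.18% and 0.916% over all genes, whose median change was -0.01. Both shares were larger among genes of at least 20 CPM (2.31% and 1.65%), and they varied with gene length, as given below. Whether a list exceeded genes of like level and length was not tested. Without the block, the vesicle release machinery and the microtubule list held 0 calls, and corepressors, RNA-binding proteins, neuregulins and Zfp genes held 1 each.

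**Figure D1:**
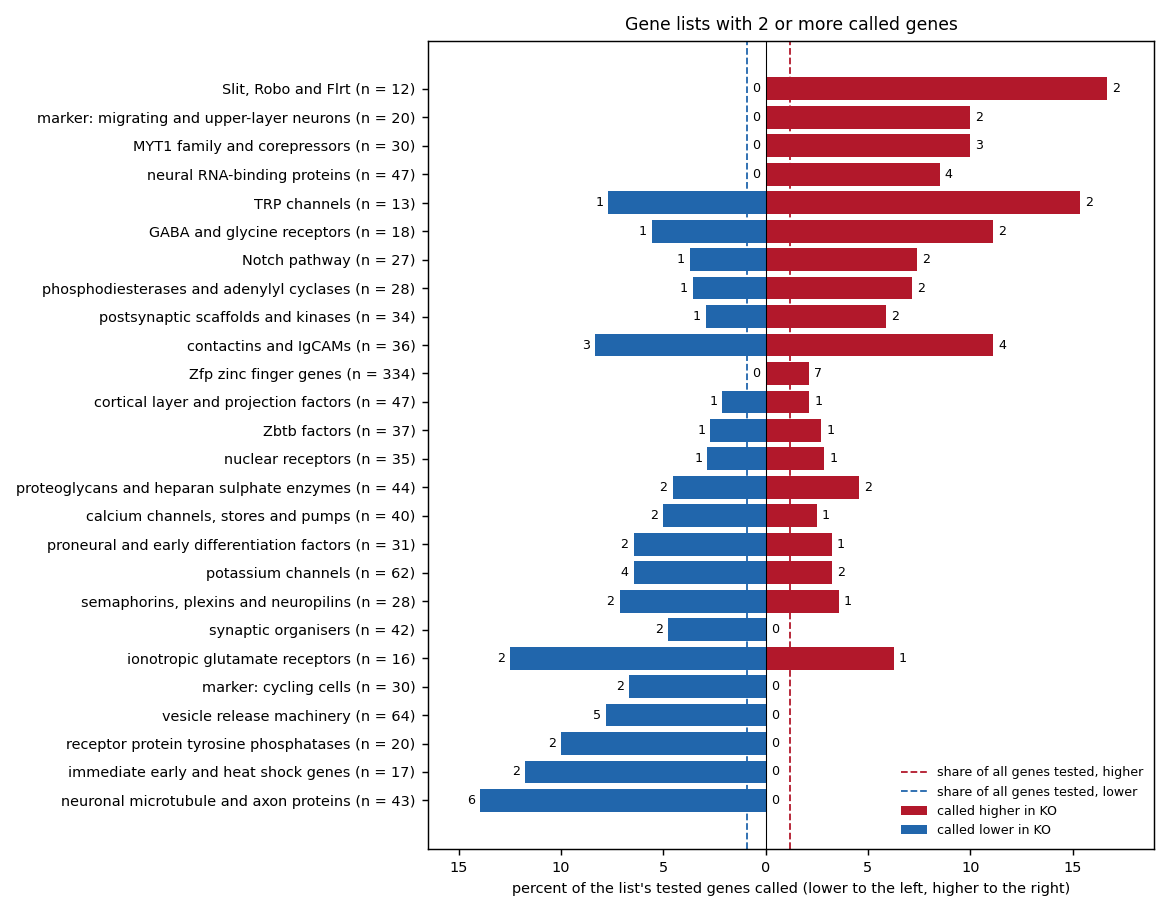
Share of the tested genes of each list that were called lower (bars to the left, blue) or higher (bars to the right, red) in KO glutamatergic nuclei, in percent of the n tested genes named beside the list, for lists of at least 10 tested genes with 2 or more calls. Numbers at the bars are called genes and dashed lines mark the shares over all genes tested, 0.916% lower and 1.18% higher. Neuronal microtubule and axon proteins (6 lower, 0 higher) and the vesicle release machinery (5 lower, 0 higher) lie on the left, while the MYT1 family and corepressors (3 higher, 0 lower) lie on the right.

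Myt1l itself remained transcribed in the mutant. The gene lies on the plus strand at chr12:29528384-29923213 (GRCm38), and its RNA stood at 1807, 2053 and 1942 CPM in WT 1 to 3 and at 2306, 2546 and 2370 CPM in KO 1 to 3. Every KO animal lay above every WT animal, with Het animals at 2003, 2277 and 2239 CPM between the means of 1934 ± 123 CPM (SD, n = 3) in WT and 2407 ± 124 CPM in KO. The change was 0.34 ± 0.0542 (log2, SE, adjusted p = 0.00251). It had the same sign in every alternative fit but was not called without the block (adjusted p = 0.148), without the replicate 2 pair (adjusted p = 0.0627) or in run 1 alone (adjusted p = 0.0976). A frameshift leaves the RNA countable, so this level does not check the genotype. Among the relatives of Myt1l, Myt1 stood at 127 ± 4.56 CPM in WT and 146 ± 7.85 CPM in KO (adjusted p = 0.0888), and St18 at 78.2 ± 10.5 and 79.7 ± 11.1 CPM (adjusted p = 0.822).

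Corepressor subunits of the LSD1-CoREST complex, which removes activating histone methylation at neuronal and non-neuronal genes, were higher in KO. The list of MYT1 relatives and SIN3, histone deacetylase, CoREST and NCoR corepressors had 30 tested members, of which 3 (10%) were called higher and 0 lower, with a median of 0.04. Phf21a (chr2:92093117-92364666, plus strand), a histone reader of the complex, measured 576, 595 and 583 CPM in WT and 829.6, 821 and 734 CPM in KO animals. WT animals lay within a narrow band and every KO animal was well above it, and the change of 0.47 ± 0.0598 (adjusted p = 0.000358) was called in all 16 alternative fits. Phf21b, its paralogue, measured 109, 104 and 105 CPM in WT against 134, 127 and 128 CPM in KO (0.32 ± 0.0609, adjusted p = 0.00816). Rcor1, the CoREST scaffold itself, measured 137, 137 and 134 CPM in WT against 177, 156 and 159 CPM in KO (0.29 ± 0.0629, adjusted p = 0.0197), and its call was lost without the replicate 1 pair (adjusted p = 0.138). The enzyme of the complex, Kdm1a, stood at 304 ± 8.93 CPM in WT and 296 ± 6.83 CPM in KO (adjusted p = 0.951), and Rest, the repressor of neuronal genes that recruits it, at 13.9 ± 1.15 and 17.8 ± 2.43 CPM (adjusted p = 0.0617).

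The promoters of these genes are shown because MYT1L is known to bind AAGTT, and those of Myt1l and of the NMDA receptor gene Grin1, described next, are shown for comparison. Each run covers 250 bases before and 50 after a RefSeq start on GRCm38.p6, 5′ to 3′ along the strand of the gene, and capitals mark AAGTT or its reverse complement AACTT. The Phf21a window at chr2:92185233-92185532 (plus strand) belongs to a start 92366 bases inside the gene as GENCODE draws it. The other windows are chr15:84855050-84855349 (minus strand) for Phf21b, chr12:111039117-111039416 (plus) for Rcor1, chr12:29528134-29528433 (plus) for Myt1l and chr2:25319138-25319437 (minus) for Grin1.
Phf21a: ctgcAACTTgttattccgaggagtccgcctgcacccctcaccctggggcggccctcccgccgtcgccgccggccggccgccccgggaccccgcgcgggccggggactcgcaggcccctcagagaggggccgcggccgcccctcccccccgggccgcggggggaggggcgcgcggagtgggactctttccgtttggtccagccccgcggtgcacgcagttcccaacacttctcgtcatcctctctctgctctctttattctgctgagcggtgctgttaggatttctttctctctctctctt
Phf21b: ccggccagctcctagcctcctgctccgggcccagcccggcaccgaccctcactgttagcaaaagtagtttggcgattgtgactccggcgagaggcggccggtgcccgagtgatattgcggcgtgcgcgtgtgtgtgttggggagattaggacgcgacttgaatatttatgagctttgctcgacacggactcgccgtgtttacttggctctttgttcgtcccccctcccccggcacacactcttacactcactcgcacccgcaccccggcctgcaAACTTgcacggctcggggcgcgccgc
Rcor1: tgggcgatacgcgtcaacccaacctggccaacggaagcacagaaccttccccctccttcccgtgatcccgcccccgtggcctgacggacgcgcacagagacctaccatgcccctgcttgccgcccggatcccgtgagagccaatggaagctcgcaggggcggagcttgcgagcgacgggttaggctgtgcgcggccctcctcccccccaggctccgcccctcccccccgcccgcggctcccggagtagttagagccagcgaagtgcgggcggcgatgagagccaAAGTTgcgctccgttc
Myt1l: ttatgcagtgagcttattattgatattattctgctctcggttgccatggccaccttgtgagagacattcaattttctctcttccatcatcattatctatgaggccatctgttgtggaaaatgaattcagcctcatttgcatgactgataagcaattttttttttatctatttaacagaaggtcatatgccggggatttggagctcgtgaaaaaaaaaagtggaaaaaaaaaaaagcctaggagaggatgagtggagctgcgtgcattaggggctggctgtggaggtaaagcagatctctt
Grin1: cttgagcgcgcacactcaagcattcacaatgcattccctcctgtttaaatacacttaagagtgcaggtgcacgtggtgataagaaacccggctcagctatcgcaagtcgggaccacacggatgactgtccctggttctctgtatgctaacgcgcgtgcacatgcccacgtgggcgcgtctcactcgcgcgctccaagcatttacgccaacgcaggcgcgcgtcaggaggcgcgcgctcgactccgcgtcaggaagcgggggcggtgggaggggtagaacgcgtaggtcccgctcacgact
The windows shown for Phf21a, Phf21b and Rcor1 held 1 match each and those for Myt1l and Grin1 held 0. There were 2 listed promoters for Phf21a and 5 for Myt1l, of which 1 each is shown. Across called genes with a listed promoter, 55 of 150 (36.7%) of those higher and 27 of 110 (24.5%) of those lower had a match, against 3676 of 11331 (32.4%) among all genes tested. At a level of at least 20 CPM the shares were 33.3%, 21.3% and 27.7%. The median GC content of the same windows was 58.2% for genes higher, 65.3% for genes lower and 60.7% for all genes, and its part in the difference was not tested. The longer form AAAGTTT or AAACTTT, which contains the shorter, occurred in 3.33%, 5.45% and 3.66% of the windows.

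Glutamate receptor genes changed subunit by subunit. Of 16 ionotropic receptor genes tested, 1 was called higher and 2 (12.5%) lower, and of 7 metabotropic receptor genes 1 was called in each direction. Grm5 (chr7:87584168-88134907), a metabotropic receptor that couples to calcium release from stores, measured 305, 239 and 285 CPM in WT and 152, 120.4 and 171 CPM in KO animals. All KO animals lay far below all WT animals, and the change of -0.88 ± 0.0626 (adjusted p = 8.62e-07) was called in all 16 alternatives. Grin1 (chr2:25291181-25319187, minus strand), the obligatory subunit of NMDA receptors, measured 26.7, 27.7 and 27.2 CPM in WT and 13.6, 13.02 and 19.4 CPM in KO (-0.80 ± 0.105, adjusted p = 0.000572), with KO 3 the nearest to the WT animals. Grin3a, another NMDA receptor subunit, stood at 19.4 ± 5.01 CPM in WT and 10.1 ± 1.30 CPM in KO (adjusted p = 0.00164). In the other direction, Gria4, an AMPA receptor subunit, measured 235, 194 and 212 CPM in WT and 293, 271 and 252 CPM in KO (0.38 ± 0.0631, adjusted p = 0.00411), and Grm3, a receptor that inhibits adenylyl cyclase, stood at 15.6 ± 1.42 and 22.2 ± 2.75 CPM (adjusted p = 0.00674).

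Among 18 genes of receptors for the inhibitory transmitters GABA and glycine, the GABA receptor subunits Gabra3 (0.33, adjusted p = 0.0352) and Gabrb2 (0.23, adjusted p = 0.0470) were called higher. Both calls were fragile. Gabra3 was not called without the replicate 2 or the replicate 3 pair (adjusted p = 0.0509 and 0.119), nor Gabrb2 without the replicate 1 or the replicate 2 pair (0.126 and 0.170).

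Neuregulins are growth factors of the ErbB receptors that act in neuron migration and synapse formation. Of 9 neuregulin and ErbB receptor genes tested, 2 (22.2%) were called lower and 0 higher, and without the replicate 3 pair 3 were called lower and 1 higher. The summed level of the list was 9226, 9701 and 9374 CPM in WT and 9534, 9649 and 8643 CPM in KO. Nrg2 measured 28.4, 24.1 and 26.4 CPM in WT and 15.8, 11.9 and 14.3 CPM in KO animals, without overlap (-0.89 ± 0.0914, adjusted p = 6.51e-05). This was the largest decrease among the autosomal genes of at least 20 CPM that moved in 1 direction in all 3 replicate pairs. Nrg3, among the most abundant RNAs of these nuclei, measured 4139, 3684 and 3771 CPM in WT and 2763, 2772 and 3283 CPM in KO (-0.37 ± 0.0614, adjusted p = 0.00392), a call that was lost without the replicate 2 pair (adjusted p = 0.0825).

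**Figure D2:**
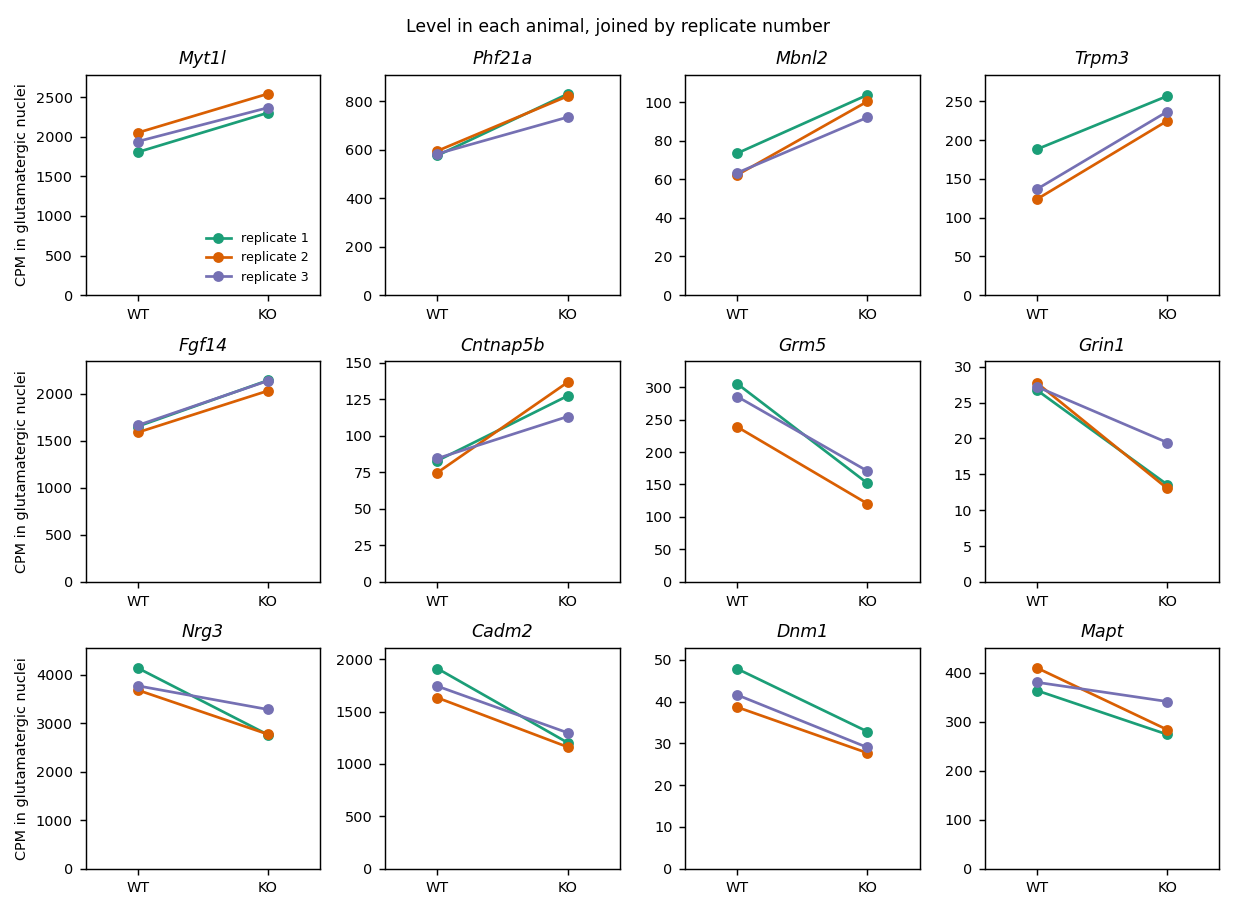
Level of 12 genes in the glutamatergic nuclei of each animal, in CPM on linear axes that start at 0, with WT and KO animals of the same replicate number joined by a line. Myt1l, Phf21a, Mbnl2, Trpm3, Fgf14 and Cntnap5b rise along every line, while Grm5, Grin1, Nrg3, Cadm2, Dnm1 and Mapt fall along every line, with the shallowest fall of Grin1 (27.2 to 19.4 CPM) and Nrg3 (3771 to 3283 CPM) in replicate 3.

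Adhesion molecules of the immunoglobulin superfamily had calls in both directions. Of 36 contactin and IgCAM genes tested, 4 (11.1%) were called higher and 3 (8.33%) lower, and without the replicate 3 pair 4 higher and 10 lower. Of the 36, 34 had at least 20 CPM, and Cadm2, Mdga2 and Cntnap5b span 965488, 756490 and 713178 bases. Among all genes over 500 kb at that level, 10.05% were called higher and 5.74% lower, shares near those of this list. Mdga2, which restrains neuroligin at synapses, measured 1111, 1228 and 1133 CPM in WT and 722, 855 and 829 CPM in KO (-0.50 ± 0.0548, adjusted p = 0.000106). Cadm2, a synaptic cell adhesion molecule, measured 1910, 1632 and 1742 CPM in WT and 1202, 1161 and 1297 CPM in KO (-0.50 ± 0.0566, adjusted p = 0.000132). Both were called in all 16 alternatives, and in both the lowest WT animal lay above the highest KO animal. Cntn1 was also lower (-0.25, adjusted p = 0.0436). Cntnap5b, a contactin-associated protein, rose from 83.0, 74.8 and 84.6 CPM to 127, 137 and 113 CPM (0.66 ± 0.0784, adjusted p = 0.00018), and Kirrel (0.39, adjusted p = 0.0407) and the neighbouring genes Ntm (0.23, adjusted p = 0.0307) and Opcml (0.23, adjusted p = 0.0389) were higher as well.

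Synaptic organisers, which hold the sides of a synapse together, had 42 tested members with 0 called higher and 2 (4.76%) lower, and a median of -0.07. Without the replicate 3 pair 3 were called higher and 6 lower. Lrfn5 measured 1604, 1470 and 1473 CPM in WT and 1170, 1244 and 1326 CPM in KO (-0.25 ± 0.0588, adjusted p = 0.0312), and its call was lost without the replicate 1 or the replicate 2 pair (adjusted p = 0.187 and 0.182). Il1rapl2, on the X chromosome, measured 149, 112 and 67.4 CPM in WT and 59.8, 62.4 and 70.7 CPM in KO (-0.65 ± 0.145, adjusted p = 0.0240). The groups overlapped, and the lowest WT value came from WT 3, the animal with Xist. Among 27 cadherins tested, Cdh9 alone was called (11.1 ± 4.29 CPM in WT and 5.61 ± 1.30 CPM in KO, adjusted p = 0.0398).

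Genes of vesicle release and recycling were called in the downward direction alone. The list had 64 tested members, of which 0 were called higher and 5 (7.81%) lower, with a median of -0.05, and 28 of its members lay above 0 and 36 below. Its summed level was 9768, 9435 and 9669 CPM in WT and 9794, 9606 and 9474 CPM in KO. Dnm1, a dynamin that cuts vesicles from the membrane, measured 47.9, 38.7 and 41.6 CPM in WT and 32.8, 27.7 and 29.0 CPM in KO (-0.49 ± 0.0720, adjusted p = 0.00161). A second dynamin, Dnm3, measured 163, 152 and 146 CPM in WT and 119, 123 and 121 CPM in KO (-0.32 ± 0.0613, adjusted p = 0.00956). Syt7, a calcium sensor of slow release, measured 65.7, 67.9 and 70.1 CPM in WT and 50.6, 46.4 and 57.4 CPM in KO (-0.38 ± 0.0691, adjusted p = 0.00674). For each of these genes the groups did not overlap. Sv2a, a vesicle glycoprotein (-0.32, adjusted p = 0.0464), and Syt4, a synaptotagmin (-0.31, adjusted p = 0.0306), completed the calls. Leaving out the replicate 3 pair gave 6 called higher and 9 lower in this list.

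Axonal and microtubule proteins showed the same direction. Of 43 tested, 6 (13.95%) were called lower and 0 higher, the median was -0.07, and 31 members lay below 0. The summed level of the list was 15342, 16253 and 15694 CPM in WT and 15063, 15451 and 15726 CPM in KO. Sptbn4, a spectrin of the axon initial segment, measured 50.2, 37.8 and 39.4 CPM in WT and 31.6, 23.2 and 30.4 CPM in KO (-0.55 ± 0.0785, adjusted p = 0.00122). The tubulin gene Tubb2a measured 33.7, 32.8 and 33.1 CPM in WT and 15.2, 21.3 and 29.5 CPM in KO (-0.55 ± 0.116, adjusted p = 0.0176), and the tubulin gene Tuba1a 510.2, 591 and 547 CPM in WT and 331, 443 and 514 CPM in KO (-0.35 ± 0.0719, adjusted p = 0.0153). KO 1 was the lowest and KO 3 the nearest to WT for both tubulins, the groups overlapped for Tuba1a but not for Tubb2a, and Tuba1a was not called without the replicate 1 pair (adjusted p = 0.0511). Mapt, which makes the microtubule-binding protein tau (-0.34, adjusted p = 0.00951), Tubb2b (-0.34, adjusted p = 0.0137) and Dync1i1, a dynein chain of retrograde transport (-0.31, adjusted p = 0.0116), were the other calls. Without the replicate 3 pair 2 members were called higher and 12 lower. Kinesins, the motors of outward transport, had 38 tested members and 0 calls, although Sybu, an adaptor that ties cargo to a kinesin, fell from 262, 271 and 259.9 CPM in WT to 153, 188 and 192 CPM in KO (-0.55 ± 0.0644, adjusted p = 0.000168). Tubulin genes share much of their sequence, so that counts may be split among copies.

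Among 34 postsynaptic scaffold and kinase genes tested, 2 (5.88%) were called higher and 1 lower. Dlg1 rose from 460.2, 468 and 452 CPM to 579.7, 564 and 529.7 CPM (0.30 ± 0.0569, adjusted p = 0.00797) and Dlgap2 from 106, 96.5 and 97.6 CPM to 132, 125 and 131 CPM (0.40 ± 0.0610, adjusted p = 0.00202), in both cases without overlap, while the related Dlgap3 stood at 18.8 ± 1.24 CPM in WT and 13.5 ± 1.33 CPM in KO (adjusted p = 0.0223).

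Ion channel genes were called in both directions. Of 62 potassium channel genes, 2 (3.23%) were higher and 4 (6.45%) lower. Kcnma1, the large-conductance calcium-activated channel, measured 213, 181 and 199.5 CPM in WT and 155, 134 and 158 CPM in KO (-0.38 ± 0.0589, adjusted p = 0.00215), while Kcnmb2, an accessory subunit of that channel, measured 29.6, 26.8 and 34.7 CPM in WT and 37.0, 36.1 and 46.6 CPM in KO (0.42 ± 0.0725, adjusted p = 0.00475). The pore and its accessory subunit thus moved in opposite directions without overlap between groups. Kcnmb2 was not called without the block, with DESeq2 or in run 1 alone, and Kcnma1 was not called without the block. Kcnip4, which binds A-type channels, was lower (-0.44, adjusted p = 0.00839), as were Kcnq5 (-0.25, adjusted p = 0.0352) and the rare Kcnk3 (-0.85, adjusted p = 0.0359), and Kcnh8 was higher (0.35, adjusted p = 0.00882). Voltage-gated sodium channel genes had 13 tested members and 0 calls, but Fgf14, an intracellular factor that binds sodium channels, rose from 1650, 1587 and 1662 CPM to 2140, 2029 and 2135 CPM (0.39 ± 0.0534, adjusted p = 0.00074), the only call among 20 FGF genes.

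Among 40 genes of calcium channels, stores and pumps, Cacna2d3, an auxiliary channel subunit, rose from 109, 94.2 and 84.7 CPM to 137, 128 and 113 CPM (0.42 ± 0.0618, adjusted p = 0.00142). Ryr2, the ryanodine receptor of calcium stores, fell from 53.2, 41.6 and 47.0 CPM to 36.4, 32.4 and 35.1 CPM (-0.41 ± 0.0708, adjusted p = 0.00473), and Cacng4, which also accompanies AMPA receptors, was lower (-0.34, adjusted p = 0.0204), though not without the replicate 2 pair (adjusted p = 0.248). TRP channel genes gave 2 calls upward and 1 downward among 13. Trpm3, a cation channel opened by heat and steroids, measured 188, 124 and 137 CPM in WT and 257, 225 and 237 CPM in KO (0.73 ± 0.0703, adjusted p = 5.06e-05), called in all 16 alternatives, and the highest WT animal lay below the lowest KO animal. Trpc7 was also higher (8.91 ± 1.24 against 13.4 ± 1.47 CPM, adjusted p = 0.00815) and Trpc1 lower (-0.39, adjusted p = 0.0160).

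Axon guidance genes were spread over several lists. Of 12 Slit, Robo and Flrt genes, 2 (16.7%) were higher and 0 lower, and the list had a median of 0.10. Without the replicate 3 pair 5 were called higher and 1 lower, and with gene span offsets 2 higher and 2 lower. The called genes were secreted ligands that repel growing axons. Slit2 measured 230.1, 239 and 234 CPM in WT and 336, 299 and 240.3 CPM in KO (0.33 ± 0.0794, adjusted p = 0.0393), and Slit3 277, 264 and 303 CPM in WT and 439, 286 and 352 CPM in KO (0.36 ± 0.0828, adjusted p = 0.0313). KO 1 was the highest animal for both, and without the replicate 1 pair neither was called (adjusted p = 0.222 and 0.272). The netrin receptor Unc5d measured 2217, 2780 and 2415 CPM in WT and 3069, 3476 and 2464 CPM in KO (0.30 ± 0.0725, adjusted p = 0.0375), and the semaphorin receptor Nrp1 503, 675 and 597 CPM in WT and 714, 852 and 602 CPM in KO (0.31 ± 0.0773, adjusted p = 0.0437). For Unc5d and Nrp1 the groups overlapped, replicate 3 hardly differed, and the calls were lost without the replicate 1 pair (adjusted p = 0.133 and 0.187) and without the replicate 2 pair (0.235 and 0.0874). Both are also markers of migrating and upper-layer neurons, a list in which they were the 2 calls among 20 tested. Of 28 semaphorin, plexin and neuropilin genes 1 was called higher and 2 lower, and of 16 netrin and 19 Eph and ephrin genes 1 each was called higher and 0 lower. The ligands Sema3e (11.9 ± 0.8997 against 7.29 ± 1.47 CPM, adjusted p = 0.00956) and Sema6b (14.8 ± 1.32 against 9.60 ± 0.257 CPM, adjusted p = 0.00956) and, among ephrins, Efna4 (12.9 ± 1.84 against 19.5 ± 1.28 CPM, adjusted p = 0.00508) were low-level calls.

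The sugar chains and matrix around the cells were touched at a few points. Of 44 proteoglycan and heparan sulphate genes, 2 were called in each direction. The sulphotransferases Hs3st2 (-0.44, adjusted p = 0.0269) and Hs3st5 (-0.31, adjusted p = 0.0244) were lower, and Ext1, which lengthens the heparan chain (0.24, adjusted p = 0.0452), and Chst9 (0.49, adjusted p = 0.0149) were higher. Without the replicate 1 pair Hs3st5 and Ext1 were not called (adjusted p = 0.104 and 0.241), and without the replicate 2 pair Hs3st2 and Ext1 were not (0.121 and 0.209). Col11a1, a chain of fibrillar collagen, rose from 96.9, 89.0 and 88.9 CPM to 143, 146 and 124 CPM (0.61 ± 0.0666, adjusted p = 0.000106, called in all 16 alternatives) and was the only call among 44 collagen and laminin genes. Adamts6, a matrix protease, rose from 37.7, 33.2 and 27.6 CPM to 53.8, 44.0 and 37.5 CPM (0.48 ± 0.0714, adjusted p = 0.00164), again the only call among 33 genes of its family.

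Signalling pathways showed scattered calls. In the Wnt pathway 1 of 40 genes was called, the transcription factor Lef1, which went from 36.5, 38.0 and 37.2 CPM in WT to 66.4, 47.9 and 47.5 CPM in KO (0.52 ± 0.0905, adjusted p = 0.00502). Of 27 Notch pathway genes, Numb, which restrains Notch (0.26, adjusted p = 0.0427), and Maml2, a coactivator of Notch (0.24, adjusted p = 0.0438), were higher, and the ligand Jag2 was lower (11.7 ± 1.24 against 6.88 ± 1.72 CPM, adjusted p = 0.00956). Numb and Maml2 were not called without the replicate 1 pair (adjusted p = 0.262 and 0.0988) or without the replicate 2 pair (0.0699 and 0.0627). Bmpr1b, a BMP receptor (-0.28, adjusted p = 0.0273), was the only call among 39 TGF-beta and BMP genes and was lost without the replicate 1 pair (adjusted p = 0.195).

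Among 28 phosphodiesterase and adenylyl cyclase genes, 2 enzymes that break down cyclic nucleotides were called higher and 1 that makes cyclic AMP lower. Pde1c measured 180.2, 188 and 204 CPM in WT and 223, 241 and 263 CPM in KO (0.37 ± 0.0576, adjusted p = 0.00215), and Pde5a was higher by 0.30 (adjusted p = 0.0389, and 0.199 without the replicate 2 pair). Adcy8, an adenylyl cyclase driven by calcium, stood at 22.2 ± 5.58 CPM in WT and 13.9 ± 6.46 CPM in KO (adjusted p = 0.00974). Rapgef4, an exchange factor that cyclic AMP switches on, was also lower (-0.39, adjusted p = 0.0123), the only call among 24 Ras and Rap regulators. Of 20 receptor tyrosine phosphatases, Ptprj (-0.28, adjusted p = 0.0352) and Ptprn2 (-0.27, adjusted p = 0.0221) were lower. Without the replicate 2 pair the calls of Ptprj and Ptprn2 were lost (adjusted p = 0.166 and 0.211), and that of Ptprj also without the replicate 1 pair (0.121).

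RNA-binding proteins of the nervous system, which steer splicing, stability and translation, had 4 called higher (8.51%) and 0 lower among 47, and 6 higher and 1 lower without the replicate 3 pair. Mbnl2, a splicing regulator, measured 73.5, 62.3 and 63.4 CPM in WT and 104, 100.4 and 92.1 CPM in KO (0.61 ± 0.0664, adjusted p = 0.000106), with no overlap and a call in all 16 alternatives. Msi2, a translational regulator of neural progenitors, measured 408, 426 and 393 CPM in WT and 578, 512 and 460.1 CPM in KO (0.36 ± 0.0647, adjusted p = 0.00638). Igf2bp1, which stabilises RNAs of the fetal brain, was higher by 0.28 (adjusted p = 0.0309) and Elavl2, an early neuronal stability factor, by 0.26 (adjusted p = 0.0363). Without the replicate 1 pair Igf2bp1 and Elavl2 were not called (adjusted p = 0.211 and 0.152), nor was Elavl2 without the replicate 2 pair (0.190).

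Genes named Zfp, a large class of zinc finger genes, had 7 called higher (2.10%) and 0 lower among 334, a share nearer to the 1.18% over all genes than in the lists above, with 204 members above 0 and a median of 0.04. Without the replicate 3 pair 14 were called higher and 2 lower. Zfp516 (0.51, adjusted p = 0.00122), Zfp521 (0.37, adjusted p = 0.00508) and Zfp808 (0.38, adjusted p = 0.0307, and 0.203 without the replicate 2 pair) were among them, and Zfp820, Zfp976, Zfp944 and Zfp800 were the others. Many of these genes have near-identical copies, so that their counts are uncertain. Zbtb20, a transcriptional repressor that acts in cortical and hippocampal development, measured 631, 652 and 602 CPM in WT and 816, 792 and 679 CPM in KO (0.30 ± 0.0596, adjusted p = 0.0112, and 0.0674 without the replicate 2 pair). Etv6 (0.36, adjusted p = 0.0116, and 0.0910 without the replicate 1 pair) and the thyroid hormone receptor Thrb (0.38, adjusted p = 0.0159, and 0.0831 without the replicate 2 pair) were higher too.

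Sox4, a factor of early neuronal differentiation and the only call among 11 Sox genes, measured 356, 553 and 478 CPM in WT and 244, 394 and 433 CPM in KO (-0.36 ± 0.0664, adjusted p = 0.00712). The animals of the same number moved together, and the groups overlapped. Bcl6, which promotes exit from the progenitor state, was lower (-0.29, adjusted p = 0.0363, but 0.123 without the replicate 1 and 0.135 without the replicate 2 pair), as were the cell cycle inhibitor Cdkn1c (20.8 ± 1.26 against 15.6 ± 2.19 CPM, adjusted p = 0.0402) and the orphan receptor Nr4a2 (16.2 ± 2.57 against 11.4 ± 1.60 CPM, adjusted p = 0.0228), the only call among 19 deep-layer markers. Layer and projection factors as a list had 1 call in each direction among 47, namely Zbtb20 and Nr4a2. The BAF chromatin remodelling complex had 0 calls among 30 genes tested with edgeR, as did 16 Fox factors, 14 LIM homeodomain genes and 14 muscle genes of the non-neuronal programme.

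Several of the steepest changes belonged to no list. Abcg2, an efflux transporter for drugs and urate, measured 30.4, 26.6 and 27.3 CPM in WT and 42.0, 42.2 and 52.4 CPM in KO (0.74 ± 0.0818, adjusted p = 0.000113, called in all 16 alternatives). Fyco1, which links vesicles to a kinesin, rose by 0.70 (adjusted p = 0.000195), Abtb2 by 0.69 (adjusted p = 0.000237) and the lipoprotein lipase gene Lpl by 0.60 (adjusted p = 0.00164). Lpl differed more between replicate numbers than between genotypes, with 10.5, 29.5 and 21.5 CPM in WT and 16.3, 38.5 and 36.7 CPM in KO. The long non-coding RNA Gm20754 rose from 131, 125 and 144 CPM to 230.5, 197 and 186 CPM (0.63, adjusted p = 0.000207). Nr6a1os, antisense to Nr6a1, rose by 0.60 (adjusted p = 0.000198), and because the sources used here do not give the strand setting of the counting, reads of the pair cannot be told apart.

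Downward, Nrip1, a corepressor of nuclear receptors, went from 52.3, 53.6 and 48.8 CPM to 29.9, 30.0 and 38.2 CPM (-0.63 ± 0.0845, adjusted p = 0.000708). Mgat4c, of a family of enzymes that branch sugar chains, went from 264, 252 and 302 CPM to 175, 157 and 202 CPM (-0.59 ± 0.0584, adjusted p = 5.06e-05, called in all 16 alternatives). Plppr5, a membrane protein tied to filopodia, fell by 0.58, the actin-binding gene Ablim3 by 0.56 and the unclassified transcript Gm37899 by 0.55. None of these genes overlapped between the groups. Myo1e, a membrane-bound myosin, was called higher (0.58, adjusted p = 0.00956), the only call among 27 myosins.

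Signs of RNA quality and other cell types moved with genotype in part, and their values stand beside the lists above. The summed level of 87 ribosomal protein genes was 1112, 950.0 and 1043 CPM in WT and 902, 821 and 1001 CPM in KO animals, and 72 of the 79 tested lay below 0, with a median of -0.16 and 0 calls. Oxidative phosphorylation genes had a median of -0.08 and 0 calls among 75. The heat shock genes Hsp90aa1 (-0.43, adjusted p = 0.0123) and Hsp90ab1 (-0.28, adjusted p = 0.0423) were called lower among 17 heat shock and immediate early genes, of which Hsp90ab1 was lost without the replicate 1 or the replicate 2 pair (adjusted p = 0.0782 and 0.316). In each of these lists the gap was widest in replicate 1 and narrowest in replicate 3. The part of RNA quality in the lower microtubule and vesicle genes was not tested.

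Markers of cycling cells summed to 975, 874 and 793 CPM in WT and 779, 779 and 745 CPM in KO, with 26 of 30 tested genes below 0, a median of -0.19 and 2 calls, Cenpf (-0.38, adjusted p = 0.0156) and Top2a (-0.28, adjusted p = 0.0352). Top2a was not called without the replicate 1 or the replicate 2 pair (adjusted p = 0.143 and 0.157). Radial glia markers summed to 1052, 1071 and 1074 CPM in WT and 995, 938 and 1018 CPM in KO, with 0 calls among 19. Intermediate progenitor markers summed to 699 to 805 CPM in WT and 777 to 909.6 CPM in KO, with 1 call, Elavl2. Most of this sum was Elavl2 itself, at 463, 529 and 490 CPM in WT and 586, 644 and 520 CPM in KO. Of the 11 members tested, 4 lay above 0 and 7 below, with a median of -0.01, so the rise of the sum is not one of the list as a whole. GABAergic markers summed to 204 to 301 CPM in WT and 189.7 to 242 CPM in KO, against 12828 CPM or more in the GABAergic nuclei of WT 1 to 3. Microglial, vascular and blood markers summed to at most 26.0 CPM a list in any of the 6 animals, and Cajal-Retzius markers, which other cells share in part, to 181 to 308 CPM.

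**Figure D3:**
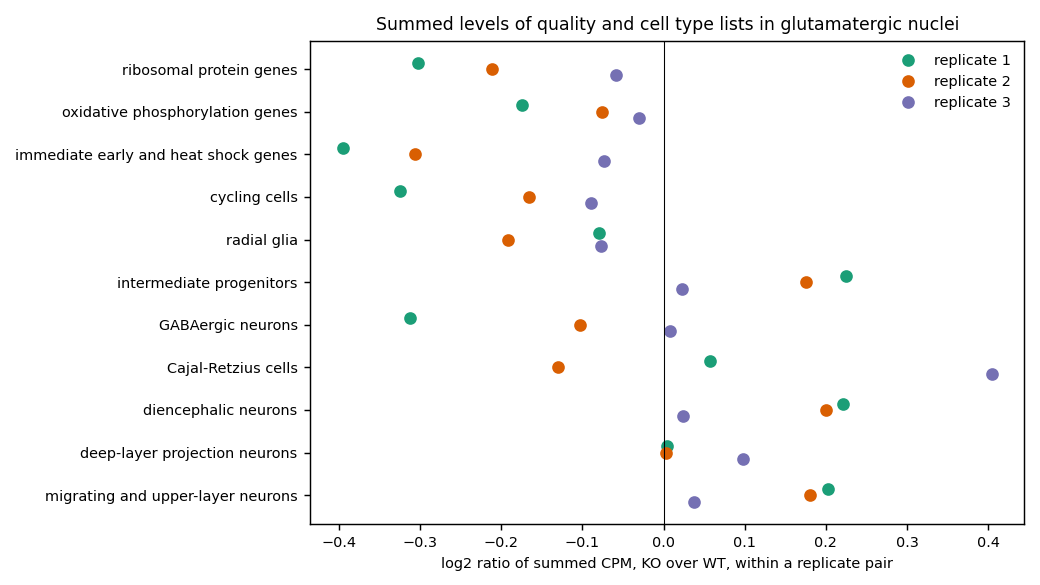
Log2 ratio of the summed CPM of each quality or cell type list, KO over WT, within each replicate pair of glutamatergic nuclei, with 0 meaning no difference. Ribosomal, oxidative phosphorylation, heat shock and cycling lists lie left of 0 in all 3 pairs, with replicate 1 the farthest (ribosomal -0.30) and replicate 3 the nearest (ribosomal -0.06). The radial glia list also lies left of 0 in all 3. Lists of intermediate progenitors and of migrating and upper-layer, deep-layer and diencephalic neurons lie right of 0 in all 3. The intermediate progenitor sum is mostly Elavl2, and 7 of the 11 tested members of that list lay below 0. The deep-layer list is close to 0 in replicates 1 and 2 (0.0046 and 0.0035).

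When glutamatergic nuclei with any count of a progenitor marker were left out, 351 of the 354 calls could be tested and all kept their sign, and 275 of them were called again. Among the named genes, Slit3, Hs3st5, Gabrb2, Ryr2, Zfp808 and Hsp90ab1 lost their call there.

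GABAergic nuclei of the same 6 animals, chosen by at least 2 counts of Gad1, Gad2 and Dlx6os1 and no Neurod2 or Neurod6, gave a smaller response by count. They held 38985 nuclei, and 53 of 18891 genes (0.281%) were called in the same fit, 37 (0.196%) higher and 16 (0.0847%) lower. Of these, 31 were also called in glutamatergic nuclei and with the same sign. Genes called higher in glutamatergic nuclei had a median change of 0.23 in GABAergic nuclei and 191 of 199 lay above 0 there, and genes called lower had a median of -0.19 with 142 of 155 below 0. The nuclei of both classes come from the same animals, so the counts of shared direction are a description.

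Whether the change itself differed between the classes was tested as an interaction within animals. No gene of 19111 was called by edgeR, with 909 at an unadjusted p under 0.05, so no change is claimed for glutamatergic nuclei alone. The test turned on the filter for low counts: without it, 90 of 42277 genes were called, 76 of them at 20 CPM or more, and 22 of the 81 genes named here were among them. Sybu was the named gene with the smallest p under the filter. Its GABAergic levels were 176, 141 and 155 CPM in WT and 155, 159 and 180.5 CPM in KO, and the difference between classes was -0.65 (adjusted p = 0.102). Grm5 stood at 773, 758 and 776 CPM in WT and 849, 523 and 681 CPM in KO GABAergic nuclei, which overlap, and its difference between classes was -0.71 (adjusted p = 0.124 with the filter and 3.42e-26 without). Mgat4c (-0.64, adjusted p = 0.186) and Nrg2 (-0.58, adjusted p = 0.102) followed the same pattern. For Phf21a and Myt1l the changes in the classes lay close together, at 0.47 and 0.41 for Phf21a and 0.34 and 0.31 for Myt1l, and both were called in GABAergic nuclei too (adjusted p = 0.00753 and 0.0390).

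**Figure D4:**
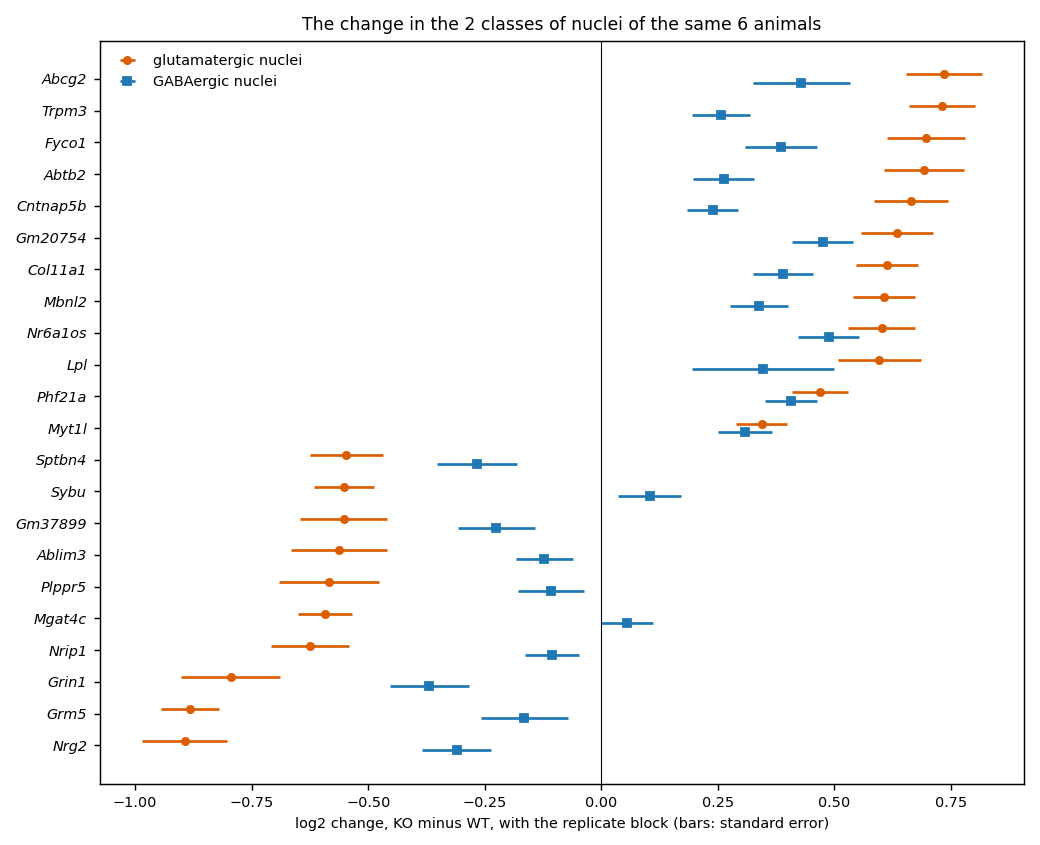
Log2 change between KO and WT with its standard error (bars) in glutamatergic nuclei (orange circles) and GABAergic nuclei (blue squares) of the same animals, for Myt1l, Phf21a and the 10 strongest increases and 10 strongest decreases by the naming rule. The 2 classes lie close together for Phf21a (0.47 and 0.41) and Myt1l (0.34 and 0.31), while Sybu (-0.55 and 0.10) and Mgat4c (-0.59 and 0.06) have GABAergic values on the other side of 0. No gene passed the test of the difference at an adjusted p under 0.05 with the low-count filter.

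Where the called genes are made was measured in the 3 Het animals, which took no part in the calls. Among genes of at least 20 CPM, those called lower in KO had a median log2 ratio of 0.66 between older glutamatergic nuclei (no count of Eomes or Neurog2) and young ones (any such count), against -0.26 for genes called higher and -0.12 for all 6540 genes. Of the 108 genes called lower, 79 (73.1%) were higher in older than in young nuclei, against 34.7% of all genes. Each Het animal gave the same order, with medians of 0.58, 0.75 and 0.65 for the genes called lower. Between glutamatergic nuclei and progenitor nuclei the medians were 1.09 for genes lower, -0.20 for genes higher and -0.15 for all genes. Between glutamatergic and GABAergic nuclei they were -0.21, 0.09 and -0.01. Most genes lower in KO were thus those with higher levels in the older glutamatergic nuclei of Het animals.

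**Figure D5:**
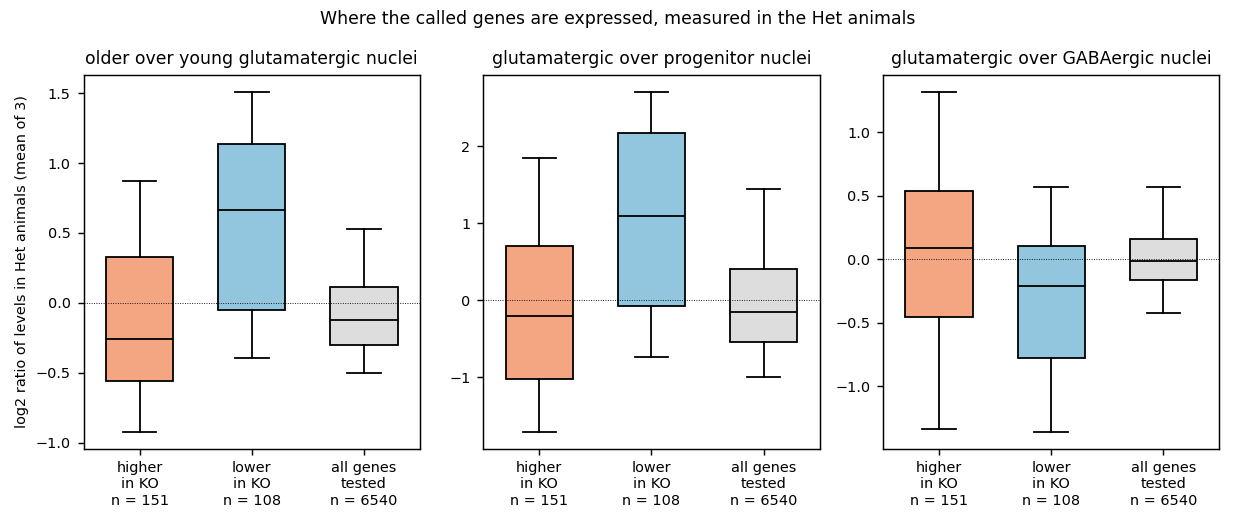
Log2 ratio of levels between populations of nuclei in Het animals (mean of 3) for genes called higher in KO (n = 151), called lower (n = 108) and all genes tested (n = 6540) of at least 20 CPM. Boxes span the quartiles with the median as a line, and whiskers run from the 10th to the 90th percentile. The genes called lower stand above the others for older over young nuclei (median 0.66) and for glutamatergic over progenitor nuclei (median 1.09).

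Length of the gene went with the change. Genes called higher spanned a median of 127.9 kb and genes called lower 48.7 kb, against 24.6 kb for all genes with a span, and at 20 CPM or more the medians were 152, 63.1 and 46.7 kb. Over all genes of at least 20 CPM the median change rose with span, from -0.08 under 5 kb to 0.06 over 500 kb, and in GABAergic nuclei from -0.07 to 0.06. The trend was steepest in replicate 1 (-0.17 to 0.05) and least in replicate 3 (-0.03 to 0.00). The shares called at 20 CPM or more also differed with span. Over 500 kb 10.05% of genes were called higher and 5.74% lower, and at 100 to 500 kb 5.13% and 2.23%. At 20 to 100 kb the shares were 1.47% and 0.92%, and at 5 to 20 kb 0.088% and 1.23%. Under 5 kb they were 0.85% higher and 7.23% lower. A fit in which each animal's dependence on span was taken out as an offset called 375 genes, 184 higher and 191 lower, with 307 of the 354 among them, and the microtubule list had 0 called higher and 6 lower in that fit. The sources used here do not say whether intronic reads were counted, and the part of RNA quality in the trend was not tested. Most called genes, 73.4% of those higher and 67.1% of those lower, overlap another annotated gene, as do 63.0% of all genes tested, and their counts could hold reads of a neighbour.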

How the data were processed

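The study measured nuclear RNA of E14 forebrain in 18 libraries, 2 runs for each of 9 animals, and 12 libraries of 6 animals entered the comparison. The authors aligned reads to mm10 with the ScaleRna pipeline (1.4 and 1.5, per the methods and the labels) and deposited estimated counts per gene and barcode, of which 6.70% to 8.71% of entries per library were not whole. The sources used here do not give how shared reads were split, the strand, or whether introns were counted. The study ran DoubletFinder, but whether the deposited counts hold doublets is not stated, and no caller was run here. The deposited counts were summed over both runs and over the chosen nuclei of each animal and rounded, and CPM is a gene's sum per 1000000 counts of that animal's glutamatergic total.

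KO and WT were compared with edgeR 4.0.16 in R 4.3.3 (quasi-likelihood F test, TMM scaling, filterByExpr) with genotype and replicate number as terms over 6 animals, which leaves 2 residual degrees of freedom. The study's own model held genotype alone. The SE is the log2 change divided by the square root of F. Genes with an adjusted p under 0.05 and a log2 change beyond 0.2 were called. The block by replicate number was fixed with the choice of the comparison, and the sources used here do not say what the number marks. As a check, deviations from the group means correlated within each number (0.530, 0.363 and 0.227 over 6541 genes) and between -0.351 and 0.0696 across numbers. Deviations cancel out within a genotype, so these correlations depend on one another, and they use the same counts as the calls. Ratios between populations of Het nuclei used a pseudocount of 1 CPM. Progenitor nuclei and GABAergic nuclei were taken by markers in the same way.

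The text names Myt1l, the 10 strongest increases and 10 strongest decreases among autosomal called genes (mean of at least 20 CPM, same direction in the 3 pairs), and the 3 called members of each list with the largest change. The nuclei, the lists and the rules were chosen with earlier results of these data known, and no list was given a test of its own. Gene positions come from GENCODE M21, where 54587 of 55335 features matched with their version, 567 without it and 181 not at all. Promoters come from RefSeq on GRCm38.p6. Some genes and lists are not reported here. The tests were tested on simulated data. Alternatives were no block, all 9 animals, DESeq2 1.42.0, other scaling, filters and nuclei, each run, each replicate pair left out, and gene span offsets, which were chosen after seeing the data.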

Additional observations from a re-analysis of the deposited data

How the results depend on the processing

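All 354 calls kept their direction in each alternative that tested all of them, as did 353 of 353 tested in run 2 alone and 351 of 351 without progenitor counts, while 332 of 341 tested in run 1 alone did. The alternatives share counts with the fit that made the calls, so the kept directions are a description. Without the replicate block 29 genes were called, 20 higher and 9 lower. With the block, 557 were called in a fit of all 9 animals (323 higher and 234 lower) and 125 with DESeq2 (80 higher and 45 lower). With gene span offsets and the replicate block 375 were called. Without the low-count filter 622 were called (315 higher and 307 lower), and run 1 alone called 21 (12 higher and 9 lower). With a marker sum of at least 1, 259 were lower. Leaving out a replicate pair gave 315 to 1003 calls, 176 to 531 of them higher and 139 to 472 lower. The difference between glutamatergic and GABAergic nuclei was called for 0 genes with edgeR (909 at an unadjusted p under 0.05), for 90 without the filter and for 0 to 8 with a pair left out. In run 1 alone the change of Hs3st2 reversed to 0.01441 and that of Cenpf to 0.003043. The cause was not tested. Of 81 named genes, 21 stayed called without the block, 61, 58 and 80 without replicate 1, 2 and 3, and 11 in run 1 alone. With DESeq2 and the block 52 stayed called, and without the upper limits on UMIs and genes 64 did. Among the 29 lost with DESeq2 were Kcnmb2, Kcnip4, Ryr2, Il1rapl2, Plppr5, Rapgef4, Trpc1, Thrb and Hsp90aa1. Precision is limited by 3 animals a group and 2 residual degrees of freedom.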

Other observations

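Some groups of genes outside the lists above were put together after the values were seen, so their counts describe these animals and carry no test. Intraflagellar transport genes, which build cilia, had 3 of 19 called higher (Ift74, Ift80 and Ift27) and 0 lower. Hippo pathway genes, which control growth through TEAD factors, had 4 of 15 called higher (Tead1, Vgll4, Nf2 and Tead3), 0 lower and a median of 0.12. Among 11 class I and II histone deacetylases, Hdac8 and Hdac9 were called higher, and among 8 anoctamins Ano4 and Ano6.

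RNAs of the maternally expressed Dlk1-Dio3 imprinted cluster had 3 of 5 called lower, Mirg, Meg3 and Rian. Of 29 other imprinted genes, Airn was called higher and Ndn, Rtl8a and Cdkn1c lower. The 20 abundant genes of actin, ubiquitin and translation all lay below 0, and 8 (40%) were called lower and 0 higher, Actb, Actg1, Eef1a1 and Ubb among them. Their median was -0.28 in glutamatergic and -0.17 in GABAergic nuclei.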
